A study of Mus musculus with 2 samples.

Results

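The prostaglandin genes described here were 10 genes that make, degrade or receive prostaglandins: Ptgs1, Ptgs2, Ptges, Ptgis, Ptgds, Hpgd, Ptger2, Ptger3, Ptger4 and Ptgfr. They were found as every non-control probe whose gene name in both scanner files was one of these symbols, which gave 13 probes and 22 spots on each array, of 39429 probes and 43020 non-control spots in all. The genes were selected on their log2 ratios between the genotypes on these same arrays, so those ratios are given as a description and without a test. Of the 10 genes, 9 passed the filter on dim probes and are among the 21238 genes tested, and Ptgs2 did not.

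RNA came from ureters dissected from mouse embryos of the NMRI strain at E14.5, a stage counted in days of embryonic development. Each of 2 Agilent arrays with 2 colours each compared a mutant, called Smad4cKO and with the genotype Tbx18(cre/+);Smad4(fl/fl), with a control of the genotype Tbx18(+/+);Smad4(fl/+). Array 1 held a female pair, with the labelled control in the red dye, and array 2 a male pair, with the labelled Smad4cKO in red, so sex and dye orientation changed together and cannot be told apart. Cre made from the Tbx18 locus is known to act in the mesenchyme around the ureter, while the dissected tissue also holds epithelium, vessels and nerves. The mutants also carried 1 Tbx18 allele with Cre that the controls lacked, and the controls carried 1 floxed Smad4 allele. Neither the number of embryos pooled per RNA nor their litters are stated in the labels, so the spread between the arrays may be technical.

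Prostaglandins are short-lived lipid signals made from arachidonic acid that phospholipases release from membranes. The cyclooxygenases encoded by Ptgs1 and Ptgs2 make a common precursor, which synthases turn into prostaglandin E (Ptges), prostacyclin (Ptgis) or prostaglandin D (Ptgds). The dehydrogenase encoded by Hpgd inactivates prostaglandins after uptake into the cell. They act through G protein-coupled receptors: the Ptger2 and Ptger4 receptors for prostaglandin E raise cyclic AMP and relax smooth muscle in many tissues, while the Ptger3 receptor lowers cyclic AMP and the prostaglandin F receptor, encoded by Ptgfr, raises calcium and contracts it. In the urinary tract, prostaglandins are known to modulate the contractions of the ureter.

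The probes behind the values are 60 bases long, and 30 bases of those on which the results turn are printed 5′ to 3′ in the sense of the transcript. Matches to the letters of the polyadenylation signal (AATAAA, or its variant ATTAAA) are in capitals. Whether a match is a signal in use is not known here. Of the genes, Hpgd, Ptger3 and Ptges had probes at 2 places in the transcript, which gives a second reading of the same RNA, and both probes of each are shown with the probes of Ptgfr and Ptger2. Genome positions were copied from the scanner files and refer to build mm9, and a transcript start is where the probe begins in the transcript it was designed on.
Hpgd, transcript start 816, plus strand of chr8:58798941-58799000: gaattcattttcaagattatgacatctctc
Hpgd, transcript start 1274, plus strand of chr8:58799399-58799458: gaaatatttagtAATAAAagcttgtccggg
Ptger3, transcript start 1069, plus strand of chr3:157268044-157268103: accagatcttggatccctgggtttatctgc
Ptger3, transcript start 1803, plus strand of chr3:157307508-157307567: ctaaatgttcagctagagctgttaaaagga
Ptges, transcript start 364, minus strand of chr2:30748214-30748273: aaccctctgatcgcctggatacatttcctc
Ptges, transcript start 3583, minus strand of chr2:30744995-30745054: aagtcagccccaATTAAAtgctttccttta
Ptgfr, transcript start 1605, minus strand of chr3:151464323-151464382: aatctgtgtggcttacgttcttggAATAAA
Ptger2, transcript start 2276, plus strand of chr14:45622004-45622063: taaatgcagtcagaccaaatgaaattcatt
Which of these lie in coding sequence and which in untranslated regions is not given in the files used here.

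By the dye labels, Hpgd was brighter in the channel labelled Smad4cKO, the receptor genes Ptger3 and Ptgfr were dimmer, and the synthesis genes lay closer to 0. All log2 ratios are of labelled Smad4cKO over labelled control. The authors' deposited table runs the other way under titles that name Smad4cKO first: Hpgd has a signed fold of -3.22 and -2.91 in the authors' deposited table. Were the dyes of both arrays labelled the wrong way round, each brighter gene would be a dimmer one and the reverse, at the same size. The targeted gene Smad4 gave -0.69 on array 1 and -0.14 on array 2, and Tbx18 gave 0.07 and 0.81, neither past limma's threshold over all genes (adjusted p = 1.00 for each). The labels do not say which part of Smad4 is deleted, so its probe may lie outside it and then checks nothing. Tbx18, of which the mutants carried 1 allele with Cre, was brighter in the labelled Smad4cKO on both arrays. Of 12 tested smooth muscle genes, 9 were brighter in the labelled Smad4cKO on both arrays and 1 was dimmer (median 0.82), as given below. Which direction of the labels is right was not tested.

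A ratio of 1.5-fold or more, to the same side on each array, was reached by 3 of the 9 tested members, 1 brighter (Hpgd) and 2 dimmer (Ptger3 and Ptgfr). Across all genes tested, 1.01% reached this, 0.490% brighter and 0.523% dimmer, while 1.25% passed 1.5-fold in opposite directions, as 0 of the members did. The sign was the same on both arrays for 7 of the 9 members and for 39.7% of all genes. Between the arrays, the log2 ratios of all genes had a Pearson correlation of -0.07, so the arrays as a whole did not agree. This value depends on the normalization, as the last section gives. The members' median log2 ratio was -0.01, and that of all genes 0.0047. The members' median absolute log2 ratio was 0.47, against 0.07 over all genes. These members were chosen with the ratios known, so nothing is read from the shares.

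**Figure D1:**
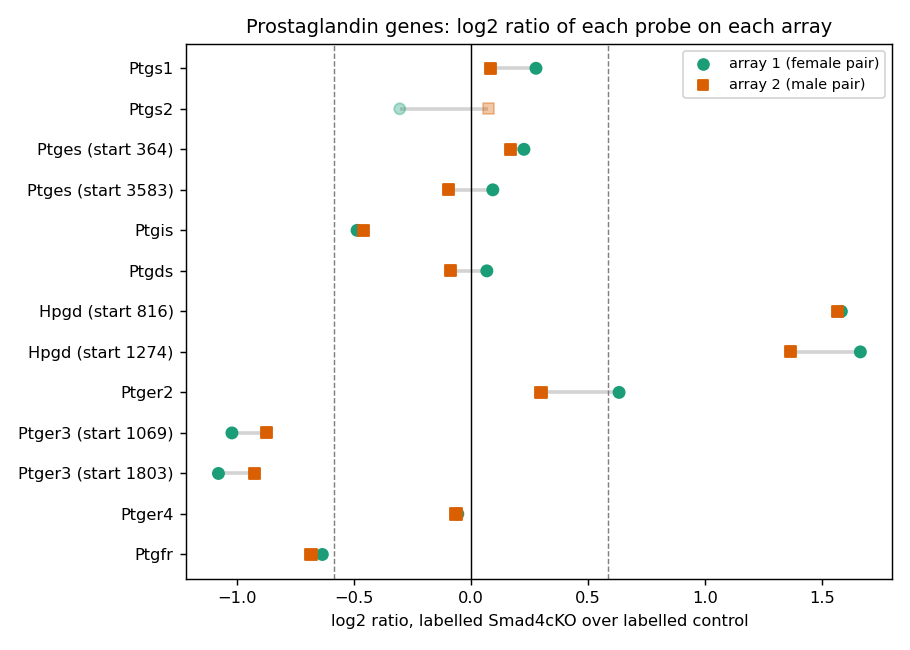
Log2 ratio of labelled Smad4cKO over labelled control for each of the 13 probes, on array 1 (circles) and array 2 (squares); dashed lines mark 1.5-fold, pale symbols mark Ptgs2, which was not well above background, and probes of 1 gene are told apart by their transcript start. Both Hpgd probes lie right of the upper line on both arrays, and both Ptger3 probes and Ptgfr lie left of the lower line.

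The only degrading enzyme among the members, Hpgd, had the largest ratio of the 10 genes. At the probe with transcript start 816, its processed signal (the scanner software's intensity after its own background and dye corrections) was 5171 in the labelled Smad4cKO and 1608 in the labelled control on array 1. On array 2 it was 6063 and 2102. Both labelled Smad4cKO channels were therefore brighter than both labelled control channels. With 2 channels per group, a lack of overlap can easily arise without a difference. Its share over all genes was not computed, so nothing is read from it here or below. The log2 ratio was 1.58 on array 1 and 1.57 on array 2 (mean 1.57 ± 0.01, SD, n = 2), or 2.98-fold, and its rank was 9 from the brightest of 21238 genes.

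The second Hpgd probe, 458 bases further 3′ in the genome, read the same direction. Its processed signal was 3295 in the labelled Smad4cKO and 971 in the labelled control on array 1, and 3673 and 1441 on array 2. Its log2 ratio was 1.67 and 1.37 (mean 1.52 ± 0.21, SD, n = 2), so the probes differed by 0.08 on array 1 and by -0.20 on array 2. The difference between the probes was smaller than the ratio of either.

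The receptor genes did not share a direction. Ptger3, the receptor that lowers cyclic AMP, gave a processed signal of 556 for the labelled Smad4cKO and 1187 in the labelled control on array 1 at the probe with transcript start 1069. On array 2 these signals were 718 and 1314. The labelled Smad4cKO was the dimmer channel on both arrays, with no overlap between the groups. The log2 ratio was -1.02 and -0.88 (mean -0.95 ± 0.11, SD, n = 2), or 1.93-fold dimmer, at rank 52 from the dimmest.

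The second Ptger3 probe lies 39464 bases away in the genome. It gave 324 against 743 on array 1 and 384 against 754 on array 2, with a log2 ratio of -1.08 and -0.93 (SD 0.11 on the log2 scale, n = 2), or 2.12-fold and 1.90-fold dimmer. Ptger3 is known to be spliced into isoforms with different C-terminal tails, and the probes read almost the same ratio, differing by -0.06 on array 1 and -0.05 on array 2. Which isoforms each probe reads is not given in the files used here.

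Ptgfr, the prostaglandin F receptor gene, was dimmer by a smaller ratio. Its processed signal was 277 in the labelled Smad4cKO and 447 in the labelled control on array 1, and 316 and 567 on array 2. The groups did not overlap. The log2 ratio was -0.64 and -0.69 (mean -0.66 ± 0.03, SD, n = 2), or 1.58-fold dimmer, past 1.5-fold on array 1 at 1.56-fold.

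Ptger2, a receptor that raises cyclic AMP, lay on the other side of 0. Its processed signal was 171 in the labelled Smad4cKO and 92.9 in the labelled control on array 1, and 155 and 115 on array 2. The labelled Smad4cKO was brighter on both arrays, but array 1 passed 1.5-fold (1.55-fold) and array 2 did not (1.23-fold). The log2 ratio was 0.63 and 0.30 (mean 0.47 ± 0.24, SD, n = 2). This probe is dim, and its ratio moved with the background correction: an offset of 10 in place of 50 gave 0.74 and 0.34, and the processed signals, which also differ in background method and dye normalization, gave 0.88 and 0.43.

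Ptger4, the other receptor of this group that raises cyclic AMP, had 1427 in the labelled Smad4cKO and 1465 in the labelled control on array 1, and 1602 and 1699 on array 2. Its log2 ratio was -0.06 on both arrays (mean -0.06 ± 0.0054, SD, n = 2). The signals of both groups overlapped. Among the receptors for prostaglandin E, the log2 ratios were thus 0.47 for Ptger2, -0.95 for Ptger3 and -0.06 for Ptger4.

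**Figure D2:**
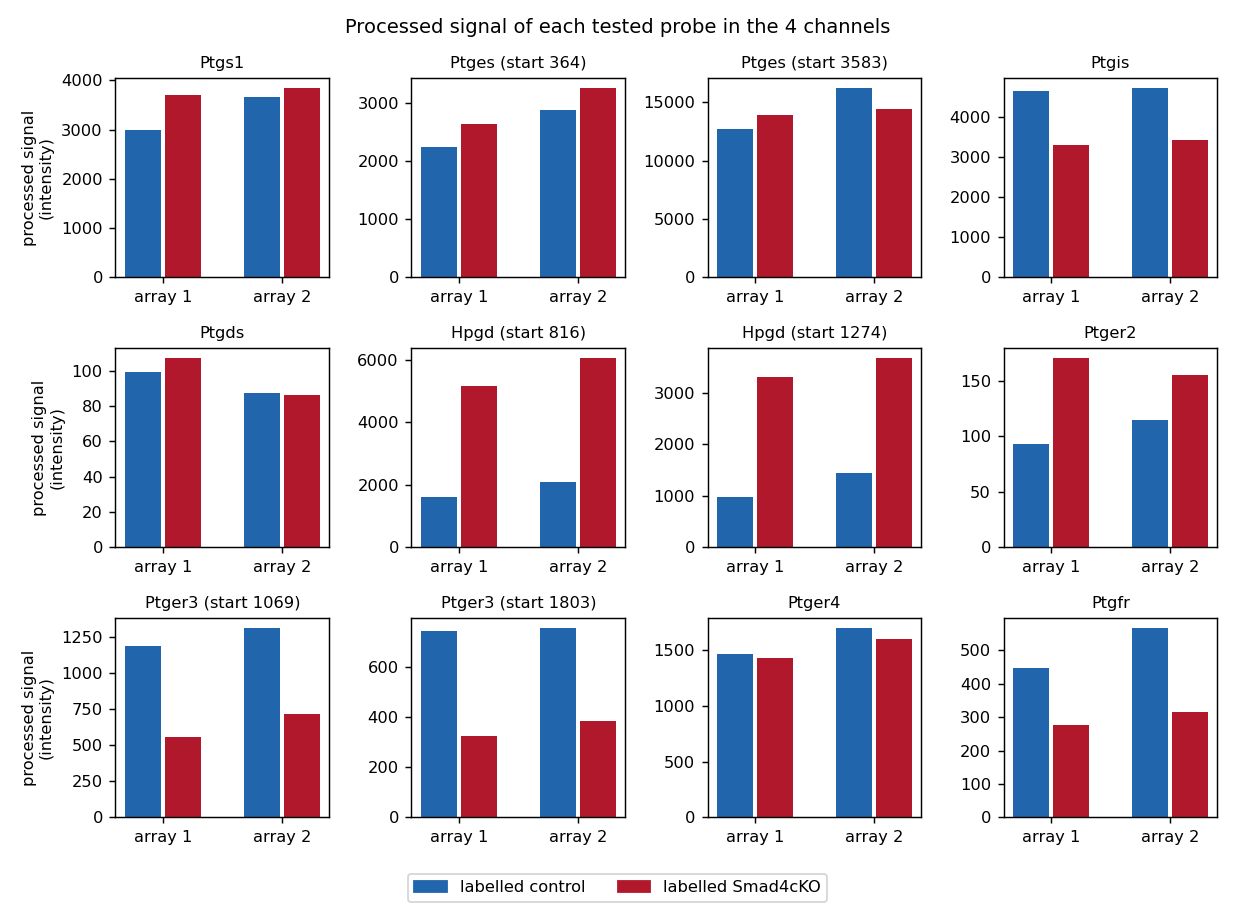
Processed signal (intensity, axis from 0) of the 12 tested probes in the 4 channels, with the labelled control in blue and the labelled Smad4cKO in red on each array; each bar is 1 probe on 1 array, with no error bar, and heights are not compared between panels. The red bar is the taller on both arrays for both Hpgd probes, Ptger2, Ptgs1 and the Ptges probe with transcript start 364, and the shorter on both for both Ptger3 probes, Ptgfr, Ptgis and, by little, Ptger4.

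Among the synthesis genes, Ptgis, which encodes prostacyclin synthase, had the largest ratio. Its processed signal was 3306 in the labelled Smad4cKO and 4651 in the labelled control on array 1, and 3424 and 4726 on array 2. Both labelled Smad4cKO channels were dimmer than both controls. The log2 ratio was -0.49 and -0.46 (mean -0.48 ± 0.02, SD, n = 2), 1.39-fold dimmer and under 1.5-fold on both arrays. Its probe lies on the minus strand of chr2:167028696-167028755 (mm9).

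Ptgs1, the cyclooxygenase that most tissues express steadily, gave 3702 in the labelled Smad4cKO and 2993 in the labelled control on array 1, and 3846 and 3664 on array 2. The groups did not overlap, but the closest signals, 3702 and 3664, came from different arrays. The second array's log2 ratio was small, with 0.28 on array 1 and 0.08 on array 2 (mean 0.18 ± 0.14, SD, n = 2). Its probe lies on the plus strand of chr2:36107644-36107703 (mm9).

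The probes of Ptges, the inducible prostaglandin E synthase, disagreed in sign on array 2. The probe with transcript start 364 gave processed signals of 2642 against 2241 on array 1 and 3262 against 2880 on array 2, labelled Smad4cKO first. Its log2 ratio was 0.23 and 0.17 (mean 0.20 ± 0.04, SD, n = 2). The brighter probe, with transcript start 3583, gave 13933 against 12711 and 14423 against 16207, with log2 ratios of 0.09 and -0.10. The probes lie 3219 bases apart, and the 3′ probe read lower by 0.13 on array 1 and by 0.27 on array 2. Neither reached 1.5-fold.

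Ptgds, which makes prostaglandin D, was dim. Its processed signals, 107 against 99.0 on array 1 and 86.0 against 87.5 on array 2 with the labelled Smad4cKO first, came with log2 ratios of 0.07 and -0.09. The groups overlapped. Its probe lies on the minus strand of chr2:25322232-25322291 (mm9).

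Ptgs2, the inducible cyclooxygenase, could not be measured at this signal. Its 1 probe was printed at 10 spots on each array, on the plus strand of chr1:151954744-151954803 (mm9). Of these, 2 spots were well above background in both channels on array 1 and 1 spot on array 2, and all of those were marked as outliers against the rest. Over the 10 spots, the median processed signal was 10.3 in the labelled Smad4cKO and 27.6 in the labelled control on array 1, and 13.4 and 13.7 on array 2. With both groups not well above background, no fold is given.

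The spots of Ptgs2 also show how far repeated spots of a dim probe spread within an array. Over all 10 spots, the log2 ratio had an SD of 0.24 on array 1 and 0.12 on array 2, with values from -0.43 to 0.43 and from -0.08 to 0.28. Without the spots above background on either array, 0 of 8 spots were brighter in the labelled Smad4cKO on array 1 and 6 of 8 on array 2. The other 9 members had 1 spot per probe, so their spread within an array is not known.

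**Figure D3:**
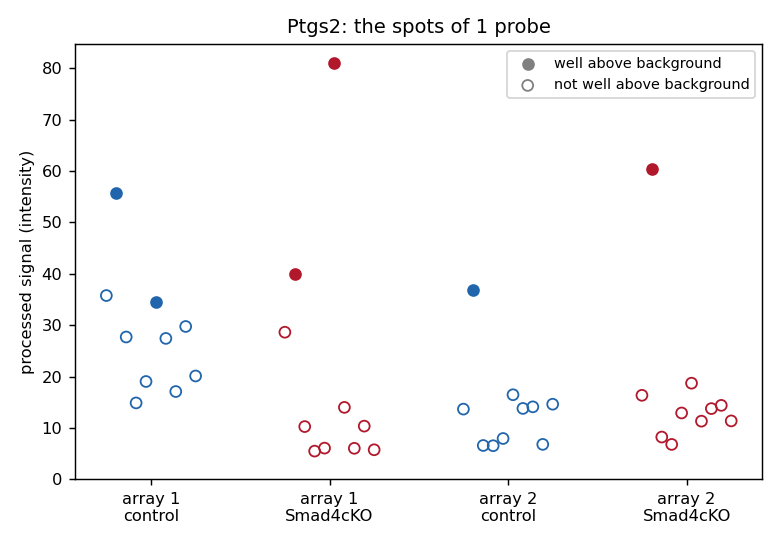
Processed signal (intensity) of the 10 Ptgs2 spots in each channel; filled points were well above background in that channel and open points were not. Most points are open, with medians between 10.3 and 27.6, and the brightest is at 80.9 in the labelled Smad4cKO of array 1.

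The gap between the arrays differed among the members. It was 0.02 (log2) for the first Hpgd probe but 0.30 for the second, and it was 0.0076 for Ptger4, 0.03 for Ptgis and 0.05 for Ptgfr. It was 0.15 for the first Ptger3 probe and 0.33 for Ptger2, the widest of the tested members. The median gap over all genes tested was 0.21. The small gaps of Hpgd and Ptgis widened under another normalization, given in the last section. As sex and dye orientation changed together, a gap cannot be given to either.

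Over 2 arrays, the pattern most like that of Hpgd, by Euclidean distance between the pairs of log2 ratios, was that of Smad9, with 1.46 on array 1 and 1.60 on array 2 (distance 0.13). Elmod1 followed (1.66 and 1.41, distance 0.17), then Kcnk3 (1.48 and 1.70, distance 0.17), Car3 (1.40 and 1.81, distance 0.30) and Irf5 (1.42 and 1.26, distance 0.34). With 2 values per gene, likeness here says only that the ratios have similar sizes.

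**Figure D4:**
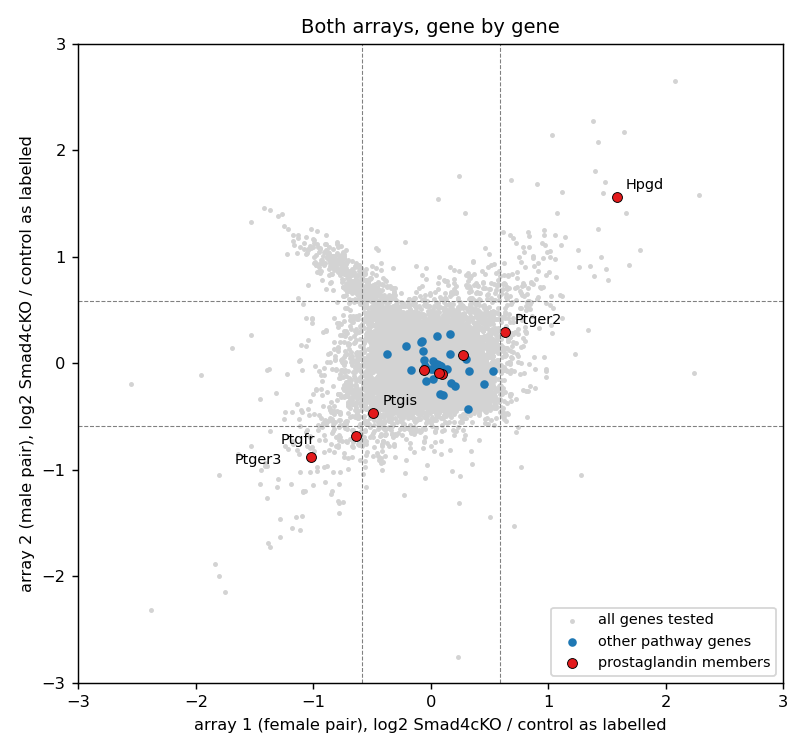
Log2 ratio of each gene on array 1 (x axis) against array 2 (y axis), for all 21238 genes tested (grey), the other pathway genes (blue) and the 9 tested members (red); dashed lines mark 1.5-fold. Hpgd lies at 1.58 and 1.57 in the upper right and Ptger3 at -1.02 and -0.88 in the lower left, while the other pathway genes lie inside the dashed lines.

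Genes elsewhere in the pathway stayed within 1.5-fold. Of 41 further genes of prostaglandin and leukotriene metabolism on the array, 32 were tested, and 0 passed limma in either direction, against 0 brighter (0%) and 1 dimmer (0.00471%) of all genes. At an unadjusted limma p under 0.05 the count was also 0 of 32, against 5.11% of all genes. On both arrays in the same direction, 0 reached 1.5-fold, against 1.01% of all genes. With shares this low, a count of 0 among 32 genes does not show that they were unchanged. Their mean log2 ratios ran from -0.14 to 0.23 (median 0.02), and 9 of 32 had the same sign on both arrays, against 39.7% of all genes. Each had a limma adjusted p of 1.00, with a standard error of 0.13 to 0.20, so ratios of this size could not be told from 0.

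All 3 transporter genes had positive ratios on both arrays, as did 4230 of all 21238 genes tested, and none was past the test. Abcc4, an exporter of prostaglandins, gave 0.22 ± 0.13 (log2, limma SE, n = 2, limma adjusted p = 1.00), with 0.16 on array 1 and 0.27 on array 2. Slco2a1, the prostaglandin uptake carrier that feeds the Hpgd enzyme, gave 0.30 and 0.04. Slco3a1 gave 0.16 and 0.08 at its brightest probe, and its second probe changed sign between the arrays (-0.05 and 0.28).

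The receptors for prostacyclin and for thromboxane were near 0. Ptgir, the prostacyclin receptor gene, gave -0.05 and -0.02, and Tbxa2r, the thromboxane receptor gene, gave 0.07 and -0.02. Ptger1, the remaining receptor gene for prostaglandin E, gave -0.08 and 0.21. Ptgfrn, a membrane protein that binds the prostaglandin F receptor, gave 0.05 and 0.26. The genes of prostaglandin D receptors, Ptgdr and Ptgdr2, were not well above background.

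Of the phospholipase genes, 5 of 7 were tested. Pla2g4a, the cytosolic enzyme that releases arachidonic acid, gave -0.06 and 0.03, and Pla2g10 gave -0.17 and -0.06. Among 7 tested further synthesis genes, Ptges2 gave 0.20 and -0.22, Ptges3 gave 0.06 and -0.05, and Akr1b3, an aldo-keto reductase that can make prostaglandin F, gave -0.04 and -0.17; its second probe gave 0.07 and -0.33. Ptgr1, a reductase that acts on the product of the Hpgd enzyme, gave -0.37 and 0.09. Ptgr2, another such reductase, gave 0.28 and 0.08 at its brightest probe, while its other 2 tested probes changed sign between the arrays. In the leukotriene branch, 9 of 13 genes were tested, with Alox5ap, which presents arachidonic acid to lipoxygenase, at 0.53 and -0.08 and the leukotriene B receptor gene Ltb4r1 at 0.02 on both.

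**Figure D5:**
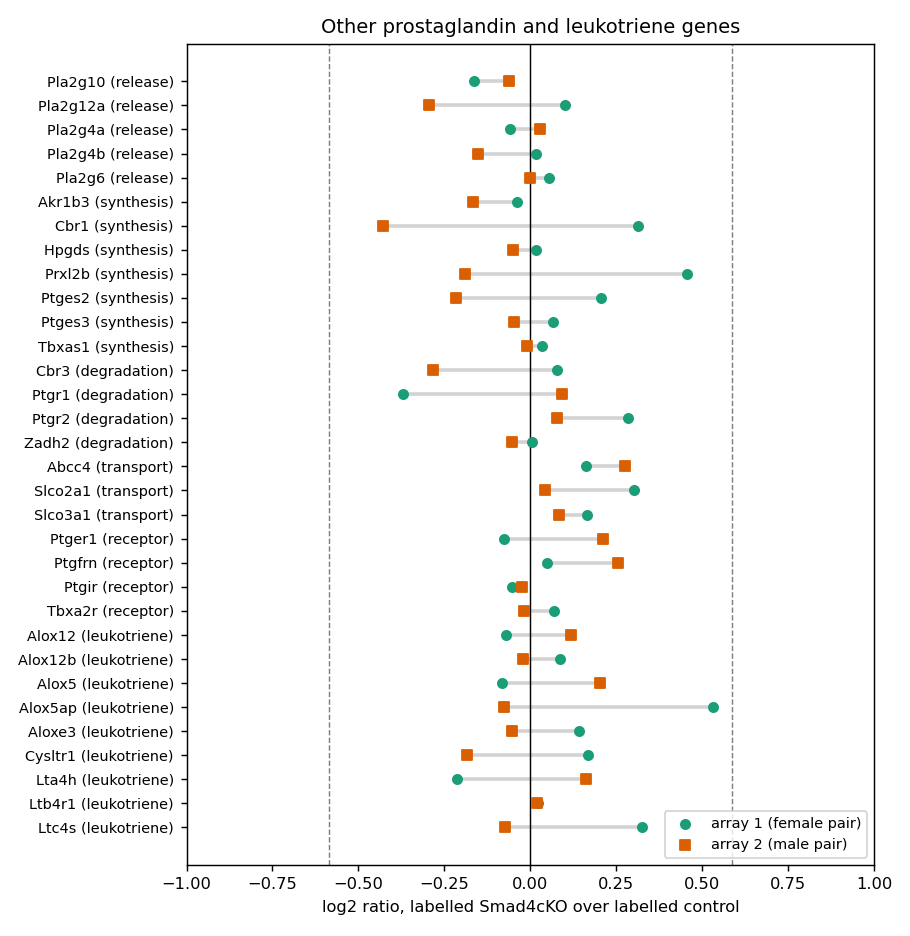
Log2 ratio of the 32 tested pathway genes outside the 10 members on array 1 (circles) and array 2 (squares), ordered by role; dashed lines mark 1.5-fold. All points lie inside the lines, and 9 genes have both points on the same side of 0.

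Markers of several cell types are set beside these ratios, and their part in the members' ratios was not tested. In bulk tissue, fewer cells of a type and less RNA per cell cannot be told apart. Of 12 tested smooth muscle genes, 9 were brighter in the labelled Smad4cKO on both arrays and 7 passed 1.5-fold (median 0.82). Synpo2 was dimmer on both (-0.91 and -0.05), and Cald1 (-0.50 and 0.27) and Myl9 (0.28 and -0.26) changed sign. Of all 21238 genes tested, 4230 were brighter and 4209 dimmer on both arrays. At 1.5-fold on both arrays these shares were 0.490% and 0.523%. The processed signals of the 12 smooth muscle genes summed to 103325 and 111479 in the labelled Smad4cKO, against 72355 and 97307 in the labelled control. Of 11 neural and glial genes, 10 were dimmer on both arrays and 3 passed 1.5-fold (median -0.53), with sums of 11074 and 12821 against 16656 and 15891. Of 11 macrophage genes, 5 were brighter on both arrays and 0 passed 1.5-fold (median 0.18, with 0.37 on array 1 and -0.04 on array 2). Their sums were 16028 and 17674 against 12265 and 18210, which overlap. Urothelial, endothelial, mesothelial and nephron genes had medians of 0.11, 0.12, -0.21 and -0.09, and the mesothelial gene Wt1 was at -0.98 while Msln was at 0.03. For the 8 ureteric mesenchyme genes the median was 0.02, and its sign changed between array 1 (-0.28) and array 2 (0.23). Of these, 2 were brighter and 1 dimmer on both arrays, and 0 passed 1.5-fold on both. Their processed signals summed to 70476 and 95707 in the labelled Smad4cKO, against 97698 and 113469 in the labelled control. These sums did not overlap, but the closest, 95707 and 97698, came from different arrays, and the brightest probes weigh most in a sum. The gene dimmer on both arrays was Bmp4, a signal of the mesenchyme, at -1.04 and -0.43 (limma adjusted p = 0.411). All 8 ureteric mesenchyme genes and all 16 urothelial genes listed were tested and so well above background in at least 1 labelled group. Of the markers listed for smooth muscle, macrophages and mesothelium, 1 each was not tested (Lmod1, Fcgr1 and Lrrn4).

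Sequence upstream of the transcription start was set beside the 3 members past 1.5-fold, to show what the promoter of each holds. RefSeq promoters (assembly GRCm38.p6) were found for 9 of the 10 members, all but Ptgis. In the 250 bases before the start, both strands were searched for 7 motifs. Of those known to bind SMAD proteins, the GC-rich element was searched as GGCGCC, the palindrome of the element as GTCTAGAC, and its short form as GTCTG. The GC box was searched as GGGCGG and the TATA box as TATAAA. The cyclic AMP element was searched as TGACGTCA, and the CArG box, bound by serum response factor, by its usual consensus. Matches are in capitals, and a run of capitals longer than a motif holds overlapping matches.
Hpgd, plus strand of chr8:56294302-56294551: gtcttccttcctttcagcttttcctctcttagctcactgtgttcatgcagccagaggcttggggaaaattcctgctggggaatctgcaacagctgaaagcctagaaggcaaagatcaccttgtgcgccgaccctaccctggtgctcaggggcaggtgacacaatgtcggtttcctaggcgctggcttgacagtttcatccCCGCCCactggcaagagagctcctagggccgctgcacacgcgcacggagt
Ptger3, plus strand of chr3:157566626-157566875: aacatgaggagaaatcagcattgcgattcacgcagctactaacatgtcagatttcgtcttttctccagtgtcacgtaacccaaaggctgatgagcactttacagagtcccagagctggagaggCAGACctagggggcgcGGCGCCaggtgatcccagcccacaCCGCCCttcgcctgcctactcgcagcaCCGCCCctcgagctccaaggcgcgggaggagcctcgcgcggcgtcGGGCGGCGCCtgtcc
Ptgfr, minus strand of chr3:151837529-151837778: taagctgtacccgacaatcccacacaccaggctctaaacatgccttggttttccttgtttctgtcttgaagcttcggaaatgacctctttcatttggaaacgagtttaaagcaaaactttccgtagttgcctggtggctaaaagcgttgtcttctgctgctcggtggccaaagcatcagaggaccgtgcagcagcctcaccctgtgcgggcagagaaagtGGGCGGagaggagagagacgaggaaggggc
The Hpgd and Ptgfr windows each held 1 match, a GC box, which 32.7% of all 32851 RefSeq promoter windows held. The Ptger3 window held 6 matches: 3 GC boxes, 1 short SMAD element (held by 42.2% of windows) and 2 of the GC-rich SMAD element, 111 to 106 and 11 to 6 bases before the start. That GC-rich element was found in 9.59% of all windows and, among the other 8 members with a window, in that of Ptgs2. The short SMAD element was also in the windows of Ptgs2, Ptgds, Ptges, Ptgs1 and Ptger4. GC boxes were also in those of Ptgs2, Ptges and Ptger4. The SMAD palindrome, the TATA box, the cyclic AMP element and the CArG box were not in the 9 members' windows, and were held by 0.167%, 12.4%, 1.55% and 1.47% of all windows. A match is a description of letters and not of a bound site.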

How the data were processed

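Gene expression was measured in ureters at E14.5 on 2 arrays, from 200 ng of total RNA per channel, per the labels' protocols. Per the submitters' processing notes, Agilent Feature Extraction 10.7.3.1 made the deposited scanner files, in which each value used is an intensity. Its processed signals were spatially detrended and dye-normalized with LOWESS settings, per the file headers. The deposited value table holds a signed fold, a score of at least 1 or at most -1. By comparison with the processed signals it is control over Smad4cKO by the dye labels, and 26129 of 26357 tested single-spot probes on array 1 and 26164 on array 2 differed from them by a constant within 0.001 (log2). How it was made is not given in the sources used.

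In limma 3.58.1 (R 4.3.3), normexp with an offset of 50 corrected the mean signals for local background, and loess then normalized each array, giving the 1377 control spots weight 0. Outlier spots, 237 and 221 of 43020, were left out, and repeated spots were averaged per probe. Probes were tested where 1 labelled group was well above background, at no fewer than 50% of the probe's spots, on both arrays (26670 of 39429 probes). Each gene was represented by its brightest tested probe. Symbols came from RefSeq accessions (26412 probes, GRCm38.p6) or else from the file. Log2 ratios of all 21238 genes went into lmFit and eBayes with a threshold of 0.05 after Benjamini-Hochberg adjustment, with 1 residual and 4.89 prior degrees of freedom. In each channel, 68.3% to 70.3% of spots were well above background and 0 were saturated, and 2 arrays limit the precision of every value. The fit was tested on simulated data.

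The members, the gene lists and the rule for named genes were chosen with earlier results of these data known. Named are the 10 members with every probe, the 2 further pathway genes per role with the largest smaller ratio among those of 1 sign, the 5 genes nearest to Hpgd, Smad4, Tbx18 and cell type markers. Further pathway genes named with their ratios, Slco2a1, Tbxa2r, Ptger1, Pla2g4a, Ptges2, Ptges3, Ptgr1 and Alox5ap, and the undetected Ptgdr and Ptgdr2, were chosen after their values were seen. Alternatives were tried in background correction, normalization, filter, probe choice, outlier spots, value source, variance model, fold threshold and arrays.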

Additional observations from a re-analysis of the deposited data

Results flagged for a closer look

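Ptgds and the brighter probe of Ptges were marked because the female pair and the male pair moved in opposite directions. The log2 ratio of array 2 minus that of array 1 was -0.157 for Ptgds (0.07 and -0.09) and -0.189 for the Ptges probe with transcript start 3583 (0.09 and -0.10). The difference was not tested, each sex has 1 array, and dye orientation changed with sex. Both gaps are under the median gap of 0.21 over all genes.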

How the results depend on the processing

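The members past 1.5-fold were Hpgd, Ptger3 and Ptgfr under every alternative in background correction, normalization, filter, probe choice, outlier spots and value source. At a 2-fold threshold 1 remained, Hpgd, against 46 of all 21238 genes. On array 2 alone there were 3 such members, against 877 of all 21238 genes. On array 1 alone there were 4, with Ptger2, against 940 of all 21238 genes. The log2 ratio kept its sign in 11 of 11 alternatives for each tested member other than Ptges (8 of 11) and Ptgds (7 of 11). Several of these could not change a sign. The filter alternatives and kept outlier spots left each tested member's value as it was, as did averaging probes for members with 1 probe. A single array cannot reverse a sign that both arrays share. Over the 11 alternatives the log2 ratio ran from 1.55 to 1.61 for Hpgd, from -1.02 to -0.88 for Ptger3, from -0.77 to -0.64 for Ptgfr and from 0.30 to 0.66 for Ptger2. No further pathway gene passed limma under any alternative that allows a test. Over all genes, limma called 1 gene, and 4 with both channels above background, 66 with normexp offset 10, 149 from the deposited value table, 303 from processed signals, 705 with an intensity trend and robust variances, and 0 by averaging the probes of each gene, with median centring or with outlier spots kept. The cause was not tested. The 1.5-fold rule found 215 genes in the same direction on both arrays, against 361 from the deposited value table, 383 from processed signals, 46 at 2-fold, and 877 to 940 on a single array. Median centring moved the median of all genes to -0.12 on array 1 and 0.12 on array 2. With it, Hpgd read 1.46 and 1.71 and Ptgis -0.64 and -0.30, so their small gaps depend on the normalization. From processed signals Hpgd read 1.68 and 1.53. The Pearson correlation between the arrays over all genes was -0.53 with median centring, 0.12 from processed signals and 0.09 from the deposited value table. Limma with 1 array left has no residual degree of freedom and was not run. No paired analysis was possible because each array already holds its pair and there is 1 group of ratios. Dim probes (Ptgs2, Ptgds, Ptger2) limit what the arrays show of those genes.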
